A study of Mus musculus with 36 samples.

Results

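The immunoproteasome and MHC class I presentation genes examined here were 10 of the 53421 genes in the count table. They were taken by their names: *Psmb8*, *Psmb9* and *Psmb10*, *Psme1* and *Psme2*, *Tap1* and *Tap2*, *Tapbp*, *B2m* and *H2-K1*. All 10 passed the filter on low counts in every comparison, and the smallest count of any of them in any library was 475. Polyadenylated RNA was sequenced from a mouse fibroblast-like chondrocyte line transfected either with a pool of non-targeting siRNAs (NT) or with siRNA against *Ift88* (IFT88siRNA), which encodes a protein of intraflagellar transport. Each of the 2 siRNA groups was collected at 0 h, in medium alone, and with 10 ng/ml interleukin-1β (IL-1β), an inflammatory cytokine that acts through NFκB, for 1, 2, 4, 8 or 24 h. This gave 12 conditions of 3 replicates and 36 libraries. The labels gave the siRNA as 50 nM, and did not say whether replicates were separate cultures, so p-values measure only the spread between these samples. One further limit bears on this gene group directly: the line is conditionally immortalised, and was maintained with interferon-γ, an inducer of these same genes, before being moved to a higher temperature without it for experiments.

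Cells display fragments of their own proteins on MHC class I molecules for inspection by cytotoxic T cells. The proteasome cuts the proteins, the TAP transporter carries the peptides into the endoplasmic reticulum, and a loading complex places them on a heavy chain paired with β2-microglobulin. Under interferon or inflammatory cytokines the catalytic subunits of the standard proteasome core (*Psmb5*, *Psmb6* and *Psmb7*) are replaced in newly made particles by *Psmb8*, *Psmb9* and *Psmb10*, which gives the immunoproteasome, and the PA28 activator encoded by *Psme1* and *Psme2* caps its ends. Many of these genes are driven by NFκB, IRF1 and the class I transactivator NLRC5.

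Of the 10 genes, 6 lie on chromosome 17 in or near the mouse MHC. In GRCm38, *Psmb9* (chr17:34181987-34187764, minus strand), *Tap1* (chr17:34187553-34197225, plus), *Psmb8* (chr17:34197721-34201454, plus) and *Tap2* (chr17:34203527-34216321, plus) filled 34335 bases. *Psmb9* and *Tap1* are divergent neighbours whose annotated ends share 212 bases. *H2-K1* (chr17:33996017-34000347, minus) and *Tapbp* (chr17:33915899-33929292, plus) lie close by, whereas *Psme1* (chr14:55578123-55581529, plus) and *Psme2* (chr14:55587441-55591113, minus) are 5911 bases apart on chromosome 14. *B2m* is at chr2:122147686-122153083 (plus) and *Psmb10* at chr8:105935735-105938444 (minus). Reads were counted without regard to strand. Reads in stretches shared by *Psmb9* and *Tap1*, or by *Psmb8* or *Tap2* and the antisense gene *Gm20496*, therefore cannot be told apart. *Gm20496* itself had between 2 and 70 counts a library. *H2-K1* shares long stretches with *H2-D1* and other class I genes, so its counts are uncertain to that extent.

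The bases before RefSeq start sites were searched for 3 motifs, since regulators of these genes are among those that IL-1β changed. RefSeq promoters (GRCm38.p6) were in the table for 9 of the 10 genes, *Tap2* being the exception, and the 250 bases before each start were read on both strands. The κB consensus was present in the windows of *B2m* and *H2-K1*, and in 7.01% of 27025 promoters of the same length. The core of the interferon-stimulated response element (GAAA, any 2 bases, GAAA) was present in *B2m* and in 3.04% of all promoters. The gamma-activated site (TTC, any 3 bases, GAA) was present in *Psmb8* and in 7.18%. RefSeq starts and the gene annotation did not always coincide: the windows of *Psmb8*, *Psmb9*, *Psme1* and *Tapbp* lay wholly inside the annotated gene, so the *Psmb8* match was in transcribed sequence, and 8 of the 9 windows, all but that of *H2-K1*, held exonic bases. The windows of the 2 class I genes and of *Psmb10* are shown, because the former held κB letters and moved least after IL-1β whereas *Psmb10* held none of the 3 motifs and moved most. Of these 3, bases inside an annotated exon were left out, which removed 1 base before the start of *B2m* and 52 before that of *Psmb10*. Capitals mark the motif matches: in *H2-K1* 4 κB matches that overlap on the 2 strands, in *B2m* GAAACTGAAA followed by the κB match GGAAAGTCCC, read on the minus strand of the gene. A match is a run of letters and not evidence of binding, and no match says only that these letters were not in the window.
H2-K1, chr17:34000348-34000597, minus strand: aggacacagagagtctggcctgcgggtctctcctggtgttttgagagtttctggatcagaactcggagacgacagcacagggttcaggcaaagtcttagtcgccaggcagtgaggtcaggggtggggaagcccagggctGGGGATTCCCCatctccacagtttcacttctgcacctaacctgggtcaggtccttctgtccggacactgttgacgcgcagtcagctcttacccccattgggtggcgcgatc
B2m, chr2:122147437-122147685, plus strand: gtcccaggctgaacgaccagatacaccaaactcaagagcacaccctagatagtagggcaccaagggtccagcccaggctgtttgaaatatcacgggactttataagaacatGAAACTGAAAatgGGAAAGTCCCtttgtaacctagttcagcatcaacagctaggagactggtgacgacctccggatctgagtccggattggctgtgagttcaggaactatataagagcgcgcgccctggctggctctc
Psmb10, chr8:105938445-105938642, minus strand: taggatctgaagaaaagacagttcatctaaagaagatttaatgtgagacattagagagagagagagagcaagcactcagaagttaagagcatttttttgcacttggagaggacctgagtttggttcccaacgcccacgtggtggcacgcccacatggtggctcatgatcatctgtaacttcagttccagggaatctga

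The libraries held 19337022 to 38304127 counts assigned to genes. *Ift88* was lower in IFT88siRNA at every time, by log2 differences between -2.12 and -1.47, and its levels in the 2 groups did not overlap. Of 12 leukocyte markers, 11 stayed under 1 CPM (counts scaled to the size of each library) in every library, *Cd3e* and *Tyrobp* had no count in any, and their summed level was between 0.948 and 3.87 CPM. The chondrocyte markers summed to between 39.9 and 151 CPM and 3 of 8 (*Acan*, *Col9a1* and *Matn1*, which encode proteins of cartilage matrix) stayed under 1 CPM in every library, whereas the 8 fibroblast markers summed to between 2337 and 5084. Of the other chondrocyte markers, *Sox9* was between 12.1 and 79.6 CPM, *Hapln1* between 6.73 and 35.6, *Comp* between 5.59 and 32.7, *Col2a1* between 4.04 and 21.8 and *Prg4* between 0.754 and 7.96. The 5 endothelial markers summed to at most 1.52 CPM. The 4 epithelial markers, like most of the genes described here, were highest at 4 h in NT, but unlike them fell below 0 h at 24 h. In NT they summed to between 2.45 and 3.42 CPM at 0 h, 14.4 and 20.6 at 4 h and 0.632 and 0.785 at 24 h. Most of this was *Cdh1*, the gene of E-cadherin (1.78 ± 0.3 CPM at 0 h and 16.3 ± 3.1 at 4 h), while *Epcam* stayed under 1 CPM in every library, and the part of these genes in the results was not tested. Fold changes below are from edgeR with TMM scaling, under which the median gene moved by at most 0.02 on the log2 scale after IL-1β. With the deposited TPM values (transcript abundance scaled by length and depth), which were not rescaled further, the median gene fell by 0.22 at both 2 and 4 h, and with upper-quartile scaling by 0.12 and 0.14. The split of calls moved with it: at 4 h in NT 2608 genes were called higher and 1994 lower, against 2263 and 2687 with upper-quartile scaling and 1700 and 2778 on TPM. On TPM the split was 894 and 1675 at 1 h, against 1479 and 1516, and 1118 and 3051 at 2 h, against 2082 and 2293.

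In NT cells IL-1β raised all 10 genes at 4 h, but by very different amounts: the 8 genes of proteasome, transport and loading rose by 1.48- to 7.94-fold, and the 2 genes of the displayed molecule, *B2m* and *H2-K1*, by 1.14- and 1.26-fold. A gene was called where its adjusted p, over all genes tested, was under 0.05 and its fold change over 1.5. At 4 h 7 of the 10 were called higher, against 16.3% of the 16048 genes tested, and all 10 had an adjusted p under 0.05, against 31.2% in that direction. The median log2 fold change was 1.08, beside -0.02 over all genes. In CPM the libraries at 4 h lay above those at 0 h for each of the 10 genes, a count given without the share of all genes. The rise of *B2m* was not kept on TPM (-0.02). In the plot of CPM by time the rise stands out from 2 h to 4 h in every panel except those of *B2m* and *H2-K1*.

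**Figure D1:**
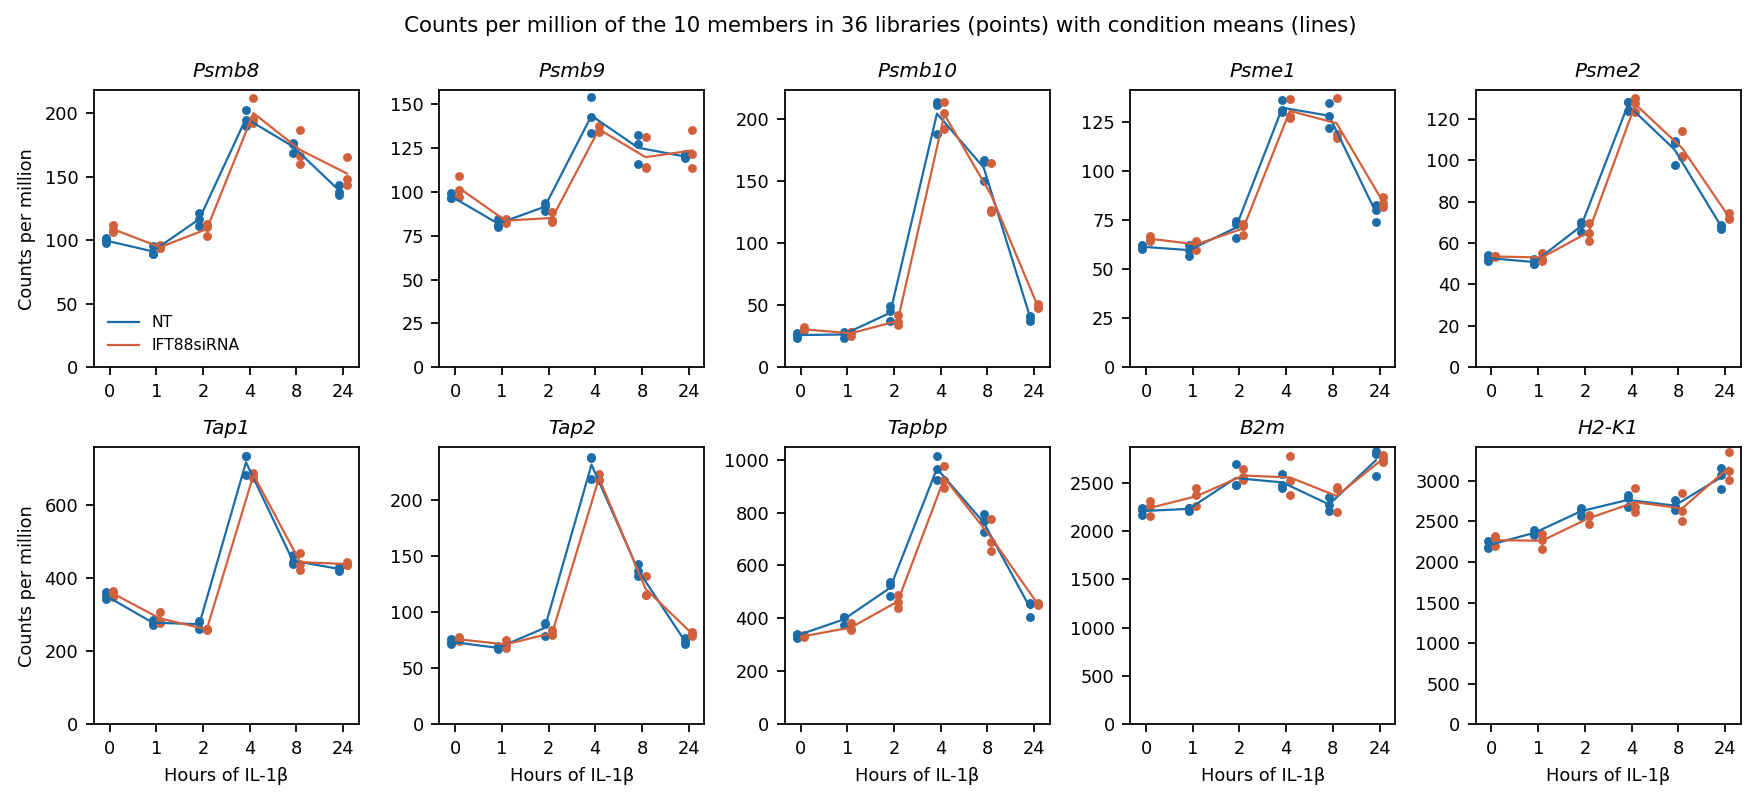
CPM (linear axes from 0) of the 10 genes against hours of IL-1β, equally spaced; points are the 36 libraries, lines join the means of 3 replicates, blue is NT and orange IFT88siRNA. 8 genes have their highest NT mean at 4 h, whereas *B2m* and *H2-K1* have it at 24 h, and the colours lie close together.

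*Psmb10*, the immunoproteasome subunit with trypsin-like activity, had the largest response. Its 3 NT libraries had 25.8, 27.8 and 23.9 CPM at 0 h, 48.9, 37.5 and 45.1 at 2 h, 214, 188 and 211 at 4 h, 165, 150.0 and 167 at 8 h and 41.3, 40.8 and 36.9 at 24 h. The libraries at 1 h, with 28.2, 27.4 and 23.4, overlapped those at 0 h, and every later time lay above them. At 4 h the log2 fold change was 2.99, SE 0.08, adjusted p = 4.88e-20, which was 7.94-fold. It was called at 2 h (0.75, SE 0.09, adjusted p = 6.64e-08), 8 h (2.64, SE 0.08, adjusted p = 1.40e-18) and 24 h (0.62, SE 0.09, adjusted p = 2.26e-06) as well. The call at 24 h rested on the fold threshold: without replicate 3 at 0 h the log2 value was 0.57, just under it. On TPM, *Psmb10* was at 0.51 at both 2 and 24 h and was called at neither.

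*Psmb8*, the chymotrypsin-like immunosubunit, went from 102, 99.9 and 97.7 CPM at 0 h to 195, 190.3 and 203 at 4 h and 144, 135 and 138 at 24 h. No library at 4 or 24 h fell to the level of 0 h, and the log2 fold change was 0.98, SE 0.04, adjusted p = 5.99e-16 at 4 h and 0.81 at 8 h. *Psmb9*, the third subunit, had 96.5, 96.5 and 99.4 at 0 h and 143, 134 and 154 at 4 h. Its rise (0.57, SE 0.05, adjusted p = 4.99e-10) was larger than the spread between replicates but stopped just short of 1.5-fold, and it crossed that line without replicate 2 at 4 h, the lowest of the 3. The 3 immunosubunits thus rose by unequal amounts at 4 h.

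*Psme1* and *Psme2*, the α and β subunits of the PA28 activator, moved in step. *Psme1* had 60.4, 61.7 and 62.1 CPM at 0 h and 136, 130.0 and 131 at 4 h, and *Psme2* had 54, 51.5 and 52.8 and 128, 124 and 128. Both groups of libraries were clearly apart, with log2 fold changes of 1.12, SE 0.05, adjusted p = 2.17e-15 for *Psme1* and 1.27, SE 0.05, adjusted p = 9.14e-18 for *Psme2*. At 8 h the libraries had 128, 122 and 135 and 108, 97.7 and 109 CPM, and at 24 h both log2 fold changes were down to 0.36.

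The transporter genes peaked sharply. *Tap2* had 73.3, 71.2 and 75.9 CPM at 0 h, 237, 218 and 238 at 4 h, 132, 137 and 142 at 8 h and 74.5, 76.4 and 71.3 at 24 h, and *Tap1* had 361, 353 and 344, 736, 685 and 735, 444, 439 and 463 and 427, 430.1 and 420.1 at the same times. At 24 h *Tap2* again overlapped 0 h, whereas *Tap1* stayed above it. At 4 h the log2 fold change was 1.66, SE 0.05, adjusted p = 5.00e-19 for *Tap2* and 1.04, SE 0.04, adjusted p = 6.62e-17 for *Tap1*. By 8 h *Tap1* was down to 0.35 and no longer called, and *Tap2* was at 0.91. *Tapbp*, which encodes tapasin, the bridge between TAP and the class I molecule, had 341, 339 and 326 at 0 h, 537, 485 and 526 at 2 h and 1012, 922 and 964 at 4 h. It had already risen at 1 h, with a log2 fold change of 0.24, SE 0.05, adjusted p = 4.88e-04, and reached 1.54, SE 0.05, adjusted p = 3.43e-18 at 4 h.

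*B2m*, the invariant chain of class I, and *H2-K1*, a classical heavy chain, were already abundant and changed little. *B2m* had 2163, 2216 and 2240.3 CPM at 0 h, 2591, 2474 and 2444 at 4 h and 2832, 2797 and 2566 at 24 h, and *H2-K1* had 2257, 2175 and 2179, 2830.2, 2674 and 2788 and 3163, 3068 and 2901. For both genes the libraries at 24 h were all above those at 0 h. The log2 fold change at 4 h was 0.19, SE 0.04, adjusted p = 4.20e-04 for *B2m*, but -0.02 on TPM, and 0.34, SE 0.04, adjusted p = 2.43e-08 for *H2-K1*, positive under each scaling tried. At 24 h the values were 0.31, SE 0.04, adjusted p = 1.71e-06 and 0.47, SE 0.04, adjusted p = 1.56e-10.

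**Figure D2:**
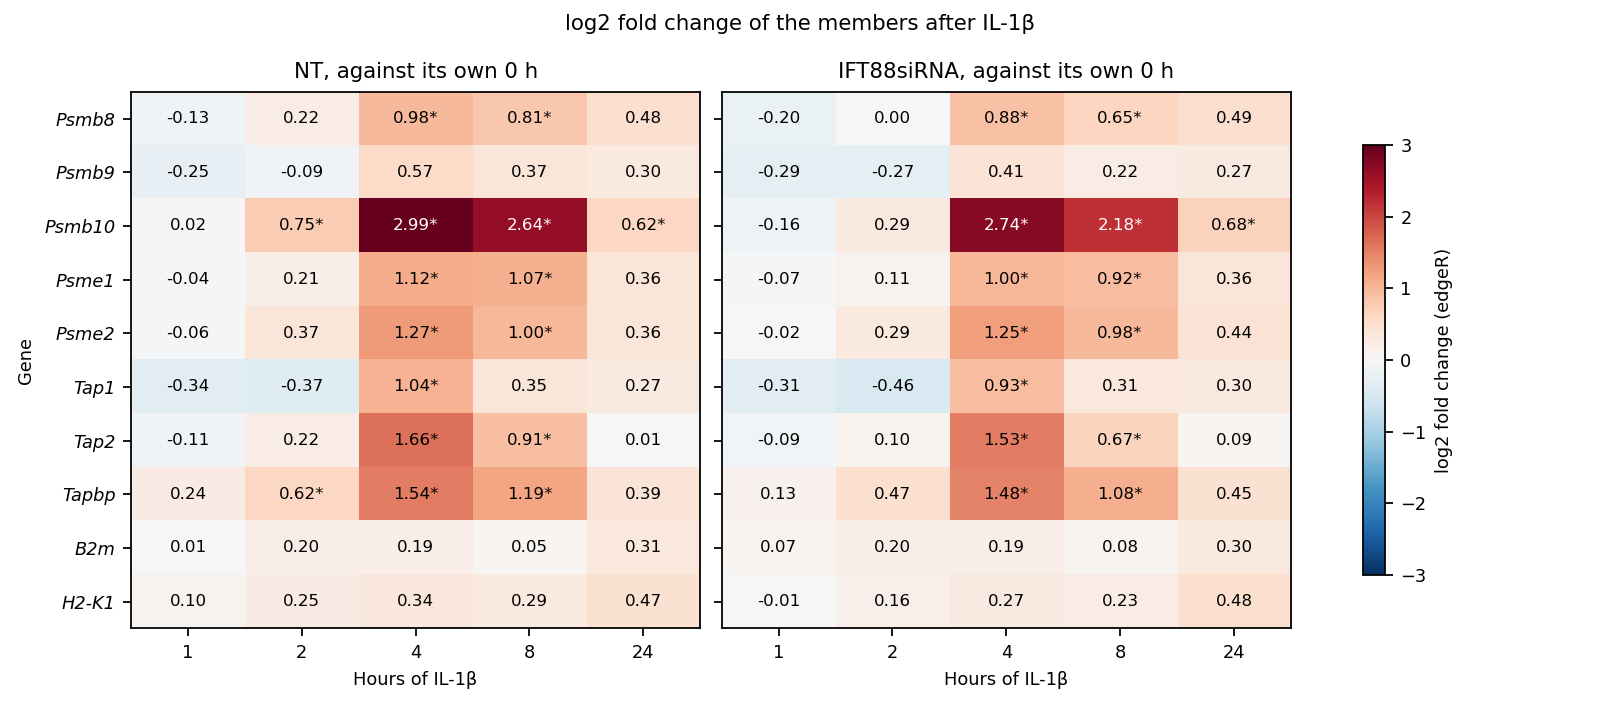
log2 fold change against 0 h of the same siRNA group for each gene (rows) and hour of IL-1β (columns), NT on the left and IFT88siRNA on the right, with the value in each cell, red for higher and blue for lower, and an asterisk where a gene was called. Both panels hold 7 asterisks at 4 h, 6 at 8 h and 1 at 24 h, and *Tap1* is blue at 1 and 2 h.

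At the first time point, before the rise, some of the 10 genes fell and others rose, about as often as genes in general. At 1 h none of the 10 was called in either direction, against 9.22% of genes called higher and 9.45% lower, and 2 had an adjusted p under 0.05 upwards and 3 downwards, against 26% and 25.8% of genes. *Tap1* went from 361, 353 and 344 CPM at 0 h to 279, 285 and 272 at 1 h and 282, 261 and 280.2 at 2 h, with no overlap. Its log2 fold change was -0.34, SE 0.04, adjusted p = 2.05e-07 at 1 h and -0.37, SE 0.04, adjusted p = 3.85e-08 at 2 h, negative under each scaling tried. Its divergent neighbour *Psmb9* fell too, from 96.5, 96.5 and 99.4 to 81.4, 84.5 and 79.9 at 1 h (-0.25, SE 0.05, adjusted p = 2.24e-04). *Psmb8* fell by less (-0.13, SE 0.04, adjusted p = 0.0171), and leaving out replicate 1 or 3 raised that adjusted p to 0.19 and 0.083. The 2 genes that passed upwards were *Tapbp* and *H2-K1* (0.10, SE 0.04, adjusted p = 0.0325), the latter at -0.09 on TPM. At 2 h 8 had passed upwards (30.7% of genes) and 1, *Tap1*, downwards, and *Psmb10* and *Tapbp* were called (13% of genes called higher). Without replicate 3 *Psmb10* alone was called. On TPM neither was called (0.51 and 0.44), and *Tap1* was called lower (-0.65). The small rises of *H2-K1*, *Psmb8*, *Psme1* and *Tap2* at 2 h, between 0.21 and 0.25, turned to between -0.07 and -0.02 on TPM.

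The decline was as uneven as the rise. At 8 h 6 genes were called higher (11.8% of genes), with a median log2 fold change of 0.86, and at 24 h 1 (6.61%), *Psmb10*, although 9 still had an adjusted p under 0.05 upwards (21.7%) and none downwards (23.2%). Comparing 24 h directly with 8 h in NT, 5 genes were called lower, against 10.2% of genes. These were *Psmb10* (-2.02, SE 0.08, adjusted p = 4.22e-16), *Tap2* (-0.89), *Tapbp* (-0.80), *Psme1* (-0.70) and *Psme2* (-0.63). *Psmb8* fell by less (-0.33, SE 0.04, adjusted p = 7.39e-07). *Psmb9* (-0.06, SE 0.05, adjusted p = 0.32) and *Tap1* (-0.08, SE 0.04, adjusted p = 0.116) did not pass the test. In the other direction *B2m* (0.26, SE 0.04, adjusted p = 2.08e-05) and *H2-K1* (0.17, SE 0.04, adjusted p = 4.93e-04) rose. By the adjusted p alone, 6 of the 8 genes of peptide supply were thus lower at 24 h than at 8 h. Both genes of the displayed molecule were higher. The share of all genes passing in each direction is not given here, so these counts do not set the genes apart.

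Levels can be compared between genes only per transcript length, for which TPM were used. In NT at 0 h the order was *B2m* (6727 ± 74.7 TPM, mean ± SD, n = 3), *H2-K1* (2927 ± 38.6), *Tapbp* (317 ± 21.8), *Tap1* (244 ± 2.34), *Psmb8* (218 ± 4.28), *Psme2* (187 ± 12.4), *Psmb9* (168 ± 5.69), *Psme1* (129 ± 4.5), *Tap2* (73.9 ± 2.16) and *Psmb10* (56.4 ± 6.92). Only *Psme2* and *Psmb9* overlapped with their neighbour in this order. At 4 h *Psmb10*, with 342 ± 23.6 TPM, had moved from place 10 to place 7, and *Tap2*, with 187 ± 11.6, was last, overlapping *Psmb9*. *B2m* stayed first and *H2-K1* second at 0, 4 and 24 h.

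The balance of transcripts can be read as the TPM of each immunosubunit over that of the standard subunit it replaces. This ratio was chosen after the data had been seen and is given as a description. It is of RNA only, and the exchange of subunits in proteasome particles was not measured. *Psmb10* over *Psmb7* was 0.292, 0.323 and 0.256 in the 3 NT libraries at 0 h, 2.01, 1.98 and 2.19 at 4 h and 0.39, 0.416 and 0.44 at 24 h. *Psmb7* therefore exceeded *Psmb10* at 0 h, and *Psmb10* exceeded *Psmb7* at 4 h, in every library. *Psmb8* over *Psmb5* was 2.05, 1.97 and 1.84 at 0 h, already above 1, and 3.95, 4.28 and 4.33 at 4 h. *Psmb9* over *Psmb6* was 0.735, 0.687 and 0.705 at 0 h and 1.04, 1.02 and 1.1 at 4 h. The ratio of the last pair thus passed 1 only narrowly, and this in the 3 NT libraries at 4 h but in none at the other times. In IFT88siRNA it was 1.14, 1.09 and 1.27 at 4 h and above 1 in replicate 1 at 8 h (1.04). At 0 h it was 0.829, 0.855 and 0.80 in IFT88siRNA, and at 0, 1 and 2 h its libraries all lay above those of NT. At these times *Psmb6* was lower in IFT88siRNA (log2 -0.16, -0.23 and -0.30, adjusted p = 0.0135, 0.00329 and 0.0189, none called), while *Psmb9* did not pass the test.

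**Figure D3:**
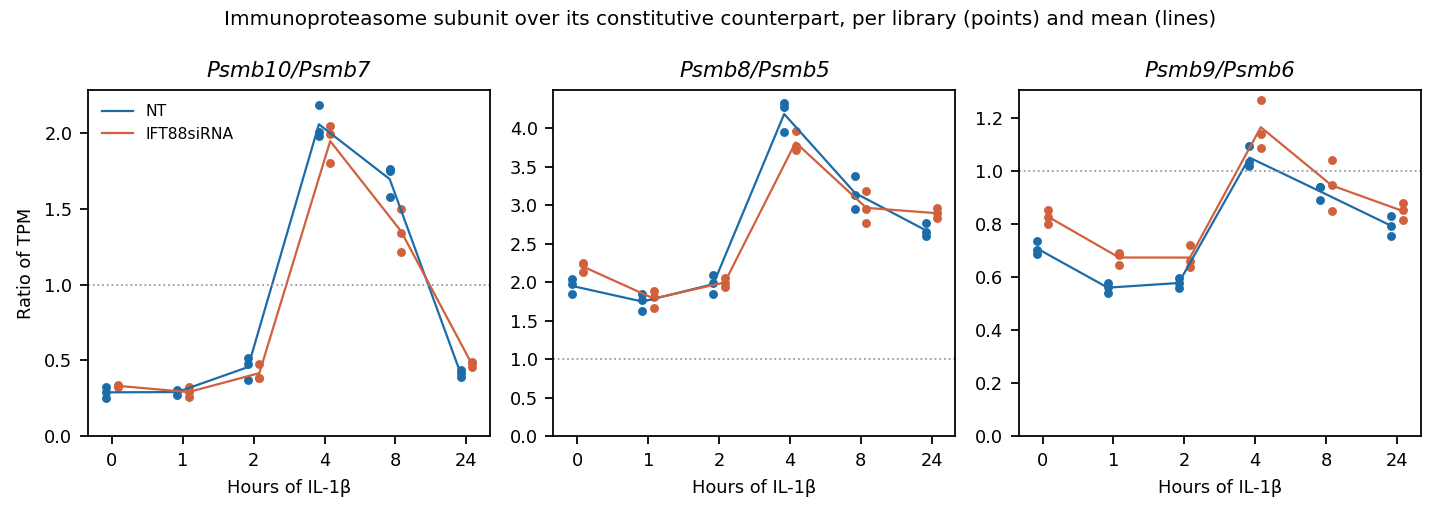
Ratio of the TPM of each immunoproteasome subunit to that of its constitutive counterpart (linear axes from 0, dotted line at 1) against hours of IL-1β; points are libraries, lines join means of 3 replicates, blue is NT and orange IFT88siRNA. *Psmb10*/*Psmb7* goes from a mean of 0.29 to 2.06 in NT between 0 and 4 h, and *Psmb8*/*Psmb5* is above 1 throughout.

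The rest of the machinery was mixed, and some of its subunits rose as well. At 4 h in NT none of the 3 standard catalytic subunits passed the test in either direction: *Psmb5* had a log2 fold change of 0.03, SE 0.07, adjusted p = 0.713, *Psmb6* -0.02, SE 0.06, adjusted p = 0.777 and *Psmb7* 0.03, SE 0.06, adjusted p = 0.719. Of 11 other subunits of the 20S core 7 had an adjusted p under 0.05 upwards and none downwards, with a median of 0.26 and 1 called, *Psma6* (0.68, SE 0.05, adjusted p = 7.79e-12). Of 17 subunits of the 19S regulator 7 passed upwards and 1 downwards, and *Psmd8* alone was called (1.01, SE 0.04, adjusted p = 2.27e-16). Of 8 other activators and assembly factors 4 passed upwards, 2 downwards and none was called. Among these were *Psme3*, the PA28γ activator (0.36), and *Pomp*, the chaperone of core assembly (0.33).

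In the loading pathway, *Erap1*, which trims peptides in the endoplasmic reticulum (1.24, SE 0.05, adjusted p = 2.63e-16), and *Tapbpl*, which encodes a tapasin-related editor (1.65, SE 0.08, adjusted p = 1.27e-15), were called. The general chaperones were not: *Calr* was at 0.24, *Canx* at -0.19 and *Pdia3* at 0.03. Of 15 other class I heavy chains tested 11 passed upwards at 4 h, none downwards, and 7 were called. The classical *H2-D1* moved as little as *H2-K1* (0.30, with 3517 ± 73.3 CPM at 0 h and 4290.0 ± 183 at 4 h). *H2-Q4* was at 0.55, whereas the non-classical *H2-T23* (1.15, SE 0.05, adjusted p = 1.22e-16), *H2-T22* (1.30) and *H2-T24* (1.93) were called. *H2-M2* had the largest value (5.90), from a level of only 1.15 ± 0.453 CPM at 4 h.

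**Figure D4:**
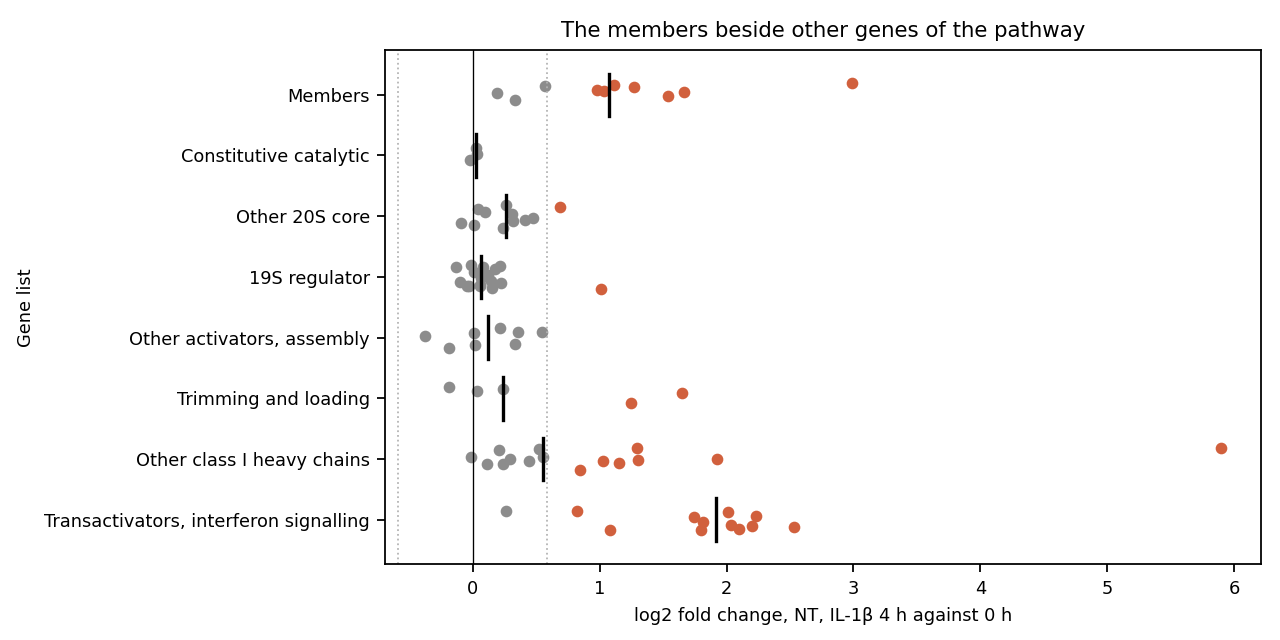
log2 fold change at 4 h of IL-1β against 0 h in NT for the 10 genes and for other genes of the pathway, 1 point per gene tested, orange where called, with the median of each list as a black bar and dotted lines at 1.5-fold. The median is 1.08 for the 10 genes, 0.03 for the standard catalytic subunits, 0.26 for the other core subunits, 0.55 for the other heavy chains and 1.91 for the transactivators and interferon signalling factors.

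Of 12 transactivators and interferon signalling factors 11 were called higher at 4 h, with a median log2 fold change of 1.91. They did not share a time course. *Irf1*, an interferon regulatory factor, was highest at 1 h, with 53.9 ± 3.02 CPM at 0 h, 625 ± 27.9 at 1 h and 189 ± 15.1 at 4 h. *Nlrc5*, the class I transactivator, was at 256 ± 14.6 at 0 h, 264 ± 26.4 at 2 h, 1027 ± 52.5 at 4 h and 419 ± 32.5 at 8 h.

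Of the ligands, *Ifng* had no count in any of the 36 libraries, while its receptor gene *Ifngr1* had 63.5 ± 1.24 CPM at 0 h. A count of 0 does not exclude a level too low to be detected at this depth. *Ifnb1*, which encodes interferon-β, had 0.0986 ± 0.0639 CPM at 0 h, 4.33 ± 0.692 at 1 h, 1.76 ± 0.202 at 2 h and 0.775 ± 0.331 at 4 h, so its highest mean preceded that of the 8 genes. Whether either ligand had a part in the rise was not tested. Over the 12 conditions, the profiles most like the mean scaled profile of the 10 genes, among genes with a mean of at least 5 CPM, were those of *Gbp6* (Pearson r = 0.990), *Parp8* (0.989), *Kars* (0.988), *Fbxl5* (0.988), *Gbp10* (0.987) and *Lnx2* (0.986). *Psmb8* was closest to that mean among the members (0.991), *B2m* was farthest (0.449) and *H2-K1* next (0.713). Each member is itself part of that mean, so its coefficient cannot be set beside those of the other genes. These coefficients are a description over conditions that share the course of IL-1β.

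In IFT88siRNA cells the response kept the same outline. At 4 h 7 of the 10 genes were called higher against their own 0 h (16% of the 16129 genes tested), at 8 h 6 (10.5%), at 24 h 1 (6.36%), and none at 1 h (6.82%) or 2 h (12.4%). All 10 had an adjusted p under 0.05 at 4 h (30.4% of genes upwards). The median log2 fold change at 4 h was 0.97, beside 1.08 in NT. The 2 groups were also compared directly at each time, to ask whether less *Ift88* changed the level of these genes. None of the 10 genes was called at any of the 6 times, against 2.23% of genes at 0 h, 2.66% at 1 h, 0.496% at 2 h, 0.432% at 4 h, 0.692% at 8 h and 1.15% at 24 h. The 60 differences were between -0.23 and 0.30 on the log2 scale, both extremes belonging to *Psmb10*, with standard errors of 0.03 to 0.10, and 47 were smaller than 0.1 in size. Of the 60, 12 had an unadjusted p under 0.05 and 3 an adjusted one, 2 at 0 h and 1 at 24 h, where 19.5% and 8.66% of all genes did.

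**Figure D5:**
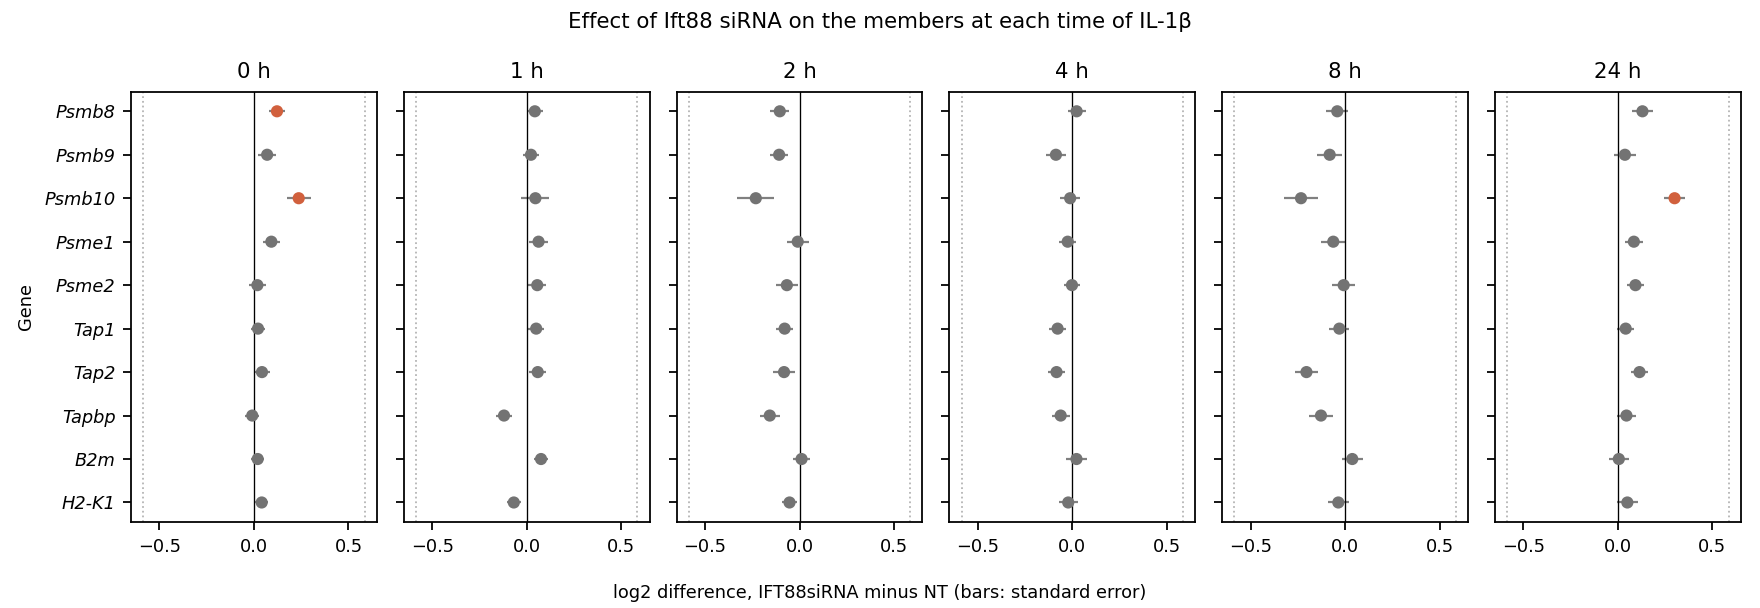
log2 difference of IFT88siRNA from NT for each gene at each time, with bars for the standard error, orange where the adjusted p was under 0.05, a line at 0 and dotted lines at 1.5-fold. The orange points are *Psmb8* and *Psmb10* at 0 h and *Psmb10* at 24 h, and no point reaches a dotted line.

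*Psmb10* was the gene on which the siRNA groups differed most, and the direction depended on the time. At 0 h the libraries had 29.6, 32 and 30 CPM in IFT88siRNA, all above the 25.8, 27.8 and 23.9 of NT (0.24, SE 0.06, adjusted p = 0.00963). That adjusted p was 0.15 without replicate 3 and 0.12 with all 36 libraries in 1 fit. At 24 h they had 48.4, 47.9 and 50.6, again all above the 41.3, 40.8 and 36.9 of NT (0.30, SE 0.05, adjusted p = 0.00267). At 2 h, with 36.3, 34 and 41.7 against 48.9, 37.5 and 45.1, the groups overlapped (-0.23, SE 0.10, adjusted p = 0.256). The difference at 2 h was -0.12 without replicate 1, and without NT replicate 2 it passed (-0.33, adjusted p = 0.0089). At 8 h IFT88siRNA replicate 1, with 164 CPM, lay among the NT values of 165, 150.0 and 167, while the other replicates had 125 and 126 (-0.23, SE 0.09, adjusted p = 0.168). Without that library the difference was -0.36, adjusted p = 0.015. From TPM the differences at 0 and 24 h were 0.13 and 0.19, and neither passed. At 4 h, the peak, the groups overlapped and the log2 difference was -0.01. *Psmb8* was also higher at 0 h (0.12, SE 0.04, adjusted p = 0.0441), by a margin that was lost without any one replicate number (adjusted p = 0.064, 0.14 and 0.27).

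*Tap2* showed a similar but smaller pattern. Its IFT88siRNA libraries at 8 h had 132, 115 and 115 CPM, against 132, 137 and 142 in NT (-0.20, SE 0.06, adjusted p = 0.0862), the highest of the first lying just below the lowest of the second. At 24 h all its IFT88siRNA libraries were above those of NT (0.11, SE 0.05, adjusted p = 0.146). At 24 h this held for 5 of the 10 genes, a count given without the share of all genes that lay apart in this way. *Psmb10* alone passed, against 8.66% of all genes. *Tapbp* was the only gene whose mean difference over the 6 times passed (log2 -0.06, SE 0.02, adjusted p = 0.0200). None was called on that mean, against 1.93% of genes called and 39.7% with an adjusted p under 0.05. Without replicate 1 or 3 the adjusted p of *Tapbp* was 0.12 and 0.09.

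The change in response itself was tested as the difference of the IL-1β effect between siRNA groups. None of the 10 passed at any single time, against 2.37% of genes at 1 h, 1.24% at 2 h, 1.18% at 4 h, 0.993% at 8 h and 0.341% at 24 h, and 5 of the 50 had an unadjusted p under 0.05. The nearest were *Psmb10* at 2 h (-0.46, SE 0.14, adjusted p = 0.0868) and 8 h (-0.45, SE 0.13, adjusted p = 0.0852), where the rise was smaller in IFT88siRNA. DESeq2 gave adjusted p = 0.027 and 0.033 for these. Over the 5 times together *Psmb10* (edgeR adjusted p = 0.0131) and *Tap2* (0.0398) passed, and none of the 10 was called, against 1.2% of genes called and 5.53% with an adjusted p under 0.05. The result for *Psmb10* was lost without replicate 1 (0.0617) or 3 (0.185), and that for *Tap2* without replicate 1 (0.131), 2 (0.164) or 3 (0.408). Neither passed on TPM. The joint test of the siRNA difference over all 6 times gave the same genes, *Psmb10* (adjusted p = 0.00466) and *Tap2* (0.0133), with none called against 5.19% of genes called and 31.8% passing, and both were lost without replicate 3 (0.105 and 0.319). At 2 h the response was smaller in IFT88siRNA for all 10 genes, and at 4 and 8 h for 9 of them. The medians were -0.11, -0.09 and -0.12 on the log2 scale. At 2 h the differences ran from -0.46 to -0.006. At 2, 4 and 8 h 3, 0 and 2 of the 10 had an unadjusted p under 0.05 (edgeR). The share of all genes with a smaller response is not given here, so these counts do not set the 10 genes apart. All these differences in response share the 0 h libraries. At 0 h every IFT88siRNA library lay above those of NT for *Psmb8*, *Psmb10* and *Psme1*, a count given without the share of all genes. Of these 3 *Psme1* did not pass the test at 0 h. The part of the 0 h levels in the differences was not tested.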

How the data were processed

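Of 36 libraries, the authors deposited raw counts per gene and TPM values. Per the labels and the study's methods, polyadenylated paired-end reads were aligned to GRCm38 with HISAT2 2.1.0 and counted with featureCounts (Subread 1.6.3) over Ensembl genes, and TPM came from Salmon 0.9.1. With unstranded counting and no multiply mapped reads, overlapping and near-identical genes lose or mix reads. Groups came from the sample titles.

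Counts were tested with the quasi-likelihood F test of edgeR 4.0.16 (R 4.3.3) after TMM scaling and filterByExpr, with Benjamini-Hochberg adjustment over all genes. The 18 libraries of 1 siRNA group entered each IL-1β comparison, the 6 of 1 time each siRNA comparison, and all 36 the means and differences in response. Called means adjusted p under 0.05 and fold change over 1.5. The standard error (SE) is the log2 value over the root of F. TPM were used for levels, and with limma 3.58.1 on log2(TPM + 1), or a pseudocount of 0.1, with genes of at least 1 TPM in 3 libraries, as an alternative. That scale understates the change of low genes. DESeq2 1.42.0, its size factors, upper-quartile scaling, no filter and leaving out replicates were others. Tests were checked on simulated counts.

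Named genes were the 10 genes, *Ift88*, fixed pathway genes, up to 3 called genes with the largest changes in each other list, and the 6 genes with the most similar profile. A fixed pathway gene is not reported here. The genes and lists were chosen with earlier results of these data known. Total counts per library were 19337022 to 38304127. Replicates differed beyond counting error (chi-square per degree of freedom 1.71 to 10.9). Sequencing lanes or batches were not given in the sources used here. The siRNA concentration differs between the labels and the study's methods.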

Additional observations from a re-analysis of the deposited data

Results flagged for a closer look

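The response of 2 genes to IL-1β differed between IFT88siRNA and NT when the 5 times were tested together: *Psmb10* with an edgeR adjusted p of 0.0131 and *Tap2* with 0.0398, from 18 libraries in each siRNA group. At 2 h the log2 difference in response was -0.46 for *Psmb10* and -0.12 for *Tap2*, and at 8 h it was -0.45 and -0.23, below 1.5-fold in size. For *Psmb10* the adjusted p over the alternatives ran from 2.69e-10 without a filter on low counts to 0.208 on TMM-scaled TPM, and for *Tap2* from 0.00332 with DESeq2 to 0.408 without replicate 3. The part played by single libraries, such as IFT88siRNA replicate 1 at 8 h, in the *Psmb10* result was not tested beyond leaving them out. With 3 libraries a condition, no group was large enough to be searched for outlying libraries.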

How the results depend on the processing

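In NT at 4 and 8 h, 356 of 361 values for single genes kept their direction and side of the threshold over the alternatives. On limma with unscaled TPM (log2(TPM + 1), a pseudocount of 0.1, or no filter) these NT results reversed, to the same value in each within rounding: *H2-K1* at 1 h (-0.091) and 2 h (-0.029, -0.030 with 0.1), *Psmb8* at 2 h (-0.068), *Psme1* at 2 h (-0.072, -0.073 with 0.1), *Tap2* at 2 h (-0.019, -0.020 with 0.1) and *B2m* at 4 h (-0.025). In IFT88siRNA, log2(TPM + 1) reversed *B2m* at 2 h (-0.039) and 4 h (-0.034) and *H2-K1* at 2 h (-0.066). After TMM scaling of the TPM, an alternative chosen after seeing the data, none of these reversed. The number of genes called in NT went from 2 to 1 at 2 h and from 1 to 0 at 24 h with upper-quartile scaling and on TPM with any of these 3 settings. At 2 h the call left was *Psmb10* with upper-quartile scaling, whereas on TPM both upward calls were lost and the 1 call was *Tap1*, lower. In IFT88siRNA on log2(TPM + 1) the number went from 0 to 1 at 2 h, again *Tap1*, lower (-0.65), and from 1 to 0 at 24 h, where *Psmb10* was at 0.57. Leaving out replicates gave 1 to 2 at 2 h (1 without replicate 3) and 0 to 1 at 24 h in NT. With the adjusted p alone and both directions pooled, the counts in NT were 5, 9 and 9 at 1, 2 and 24 h. They were 8 for 24 h against 8 h in NT, and 3, 7 and 9 at 1, 2 and 24 h in IFT88siRNA. The mean siRNA difference gave 1, and each joint siRNA test 2. The siRNA difference gave 2 at 0 h and 1 at 24 h. The share of all genes passing is not given beside these counts, so they do not set the genes apart.

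Replicate numbers did not pair the samples: deviations from group means correlated by -0.133 to 0.223 between siRNA groups, over 0.1 in 2 of 18 pairs. With the replicate block no count of genes called changed, the adjusted p of the difference in response became 0.00708 for *Psmb10* and 0.0361 for *Tap2*, and that of *Psmb8* at 0 h 0.093. With 3 libraries a condition, some differences of the siRNA groups well above their standard errors did not pass. Differences of that size could therefore be missed, and the size that could be resolved was not the same for every gene. The p-values cover the spread between these samples only.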

Other observations

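Class II presentation genes in part took a different course from the class I genes in NT. Of 7 tested, 6 passed upwards at 1 h (26% of all genes) and at 2 h (30.7%). At 2 h 4 were called higher (13% of all genes), with a median log2 fold change of 0.72. At 24 h 1 passed upwards (21.7%) and 6 downwards (23.2%), with a median of -0.55. Some of the 7 had few reads, such as *Ciita*, with 17 to 26 counts a library in NT at 0 h. How these changes depend on the scaling was not tested.

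*Rela*, which encodes the p65 subunit of NFκB and was named here after its values were seen, was lower in IFT88siRNA than in NT at each of the 6 times, by log2 differences of -0.32 to -0.50 (edgeR, adjusted p between 9.4e-07 and 0.00042), and was not called at any of them. Of all genes, 19.5% had an adjusted p under 0.05 in this comparison at 0 h and 8.66% at 24 h. *Nlrc5* was lower at 0 h (-0.23, adjusted p = 0.0012) and 1 h (-0.22, 0.011), and *Irf1* at 1 h (-0.35, 6.1e-05), whereas *Irf1* was higher at 24 h (0.20, 0.012). These values are of RNA only. The study reported no robust difference in total p65 protein between NT and IFT88siRNA cells. Whether the lower *Rela* RNA changed the protein was not tested here.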
